A study of Rattus norvegicus with 8 samples.

Results

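Expression of 10 genes from the families of TGF-beta and bone morphogenetic protein (BMP) antagonists and latency proteins was followed in rat annulus fibrosus cells (AFCs). Among them were the BMP antagonists Grem1, Nog and Chrd and the follistatins Fst, Fstl1 and Fstl3. The others were the latent TGF-beta binding proteins Ltbp1, Ltbp2 and Ltbp3 and the inhibitory SMAD gene Smad7. All 10 genes were taken by symbol from the deposited table of transcript abundance, where each had exactly 1 of the 31699 rows. AFCs come from the outer ring of the intervertebral disc. They were isolated from Sprague Dawley rats, with the tissue of 8 rats pooled for each isolation, and were used at generation 3. All samples were infected with a lentivirus at a multiplicity of infection of 20 for 24 h and then exposed to cyclic mechanical stretch at 20% elongation and 0.5 Hz for 36 h. The Lv-Ctrl group (n = 4) received the control vector pLVX-shRNA-Puro and the Lv-Piezo1 group (n = 4) received pLVX-shRNA-Puro-Piezo1, which carries a short hairpin RNA against the mechanosensitive channel gene Piezo1. No unstretched or uninfected sample was part of the comparison. Rats of the animal experiments were 3-month-old males, and the methods give no separate age for the rats that gave the cells. Expression of the targeted gene went against the label. Piezo1 measured 30.1 ± 2.67 TPM in the Lv-Ctrl-labelled libraries and 39.4 ± 1.75 TPM in the Lv-Piezo1-labelled libraries (SD, n = 4 each), with a log2 fold change of 0.38 (standard error 0.06, limma adjusted p = 8.6e-04). The paper reports the effectiveness of the hairpin as verified, and a decline of calpain activity and cleaved-Caspase3 after Lv-Piezo1 treatment. Those were other assays than the RNA-seq used here. Every direction given here is therefore one between labels, higher or lower in the Lv-Piezo1-labelled libraries. All directions would turn if the labels were exchanged, which was not tested.

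TGF-beta, activin and BMP ligands are secreted dimers that signal through pairs of serine/threonine kinase receptors to SMAD transcription factors. Cells limit them at several steps. Gremlin 1, noggin and chordin bind BMPs outside the cell, follistatin and follistatin-like 3 bind activins and myostatin, the binding proteins LTBP1 and LTBP3 tether TGF-beta to the matrix in a latent complex, and SMAD7 blocks the receptors from inside. LTBP2 belongs to the same family by sequence but is known to lack the bond to latent TGF-beta. In the disc, TGF-beta signaling is known for its part in forming and maintaining the collagen-rich annulus.

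Of the 10 genes, 4 rose, 4 fell and 2 did not pass the test, and the largest fall and the largest rise were those of Grem1 and Ltbp2. Expression was given as TPM, transcript abundance per unit of length with the same total in every sample, which lets genes be compared within a sample, and the 13103 genes that averaged at least 1 TPM were tested with limma as log2(TPM + 1). All 10 genes passed this limit. A gene passed the test at a Benjamini-Hochberg adjusted p below 0.05 over all tested genes, and was called when the change was also at least 1 on the log2 scale. Chrd, Fst, Fstl3 and Ltbp2 passed the test as higher and Grem1, Nog, Ltbp1 and Smad7 as lower, that is, 4 of 10 in each direction, against 41.9% of all tested genes higher and 16.3% lower. Fstl3 and Ltbp2 were called higher and Grem1 was called lower, against 4.91% and 2.76% of all tested genes. In 9 of the 10 genes the groups did not overlap, against 54.2% of all tested genes. The median log2 fold change of the 10 genes was 0.05 and that of all tested genes 0.14. This shift of 0.14 is a property of the whole table, and median-ratio scaling of the samples brought the median of all genes to -0.0046. The scaling factors moved with the groups, at 0.899 to 0.972 in the Lv-Ctrl-labelled libraries and 1.042 to 1.088 in the Lv-Piezo1-labelled libraries. So did the share of TPM from mitochondrially encoded genes (symbols that begin with Mt-), at 6.87% to 7.74% and 5.69% to 6.16%. With those genes left out all 10 genes kept their direction and Fstl3 lay at 0.99. In bulk RNA, fewer cells of a type and less RNA per cell cannot be told apart in any of these values.

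**Figure D1:**
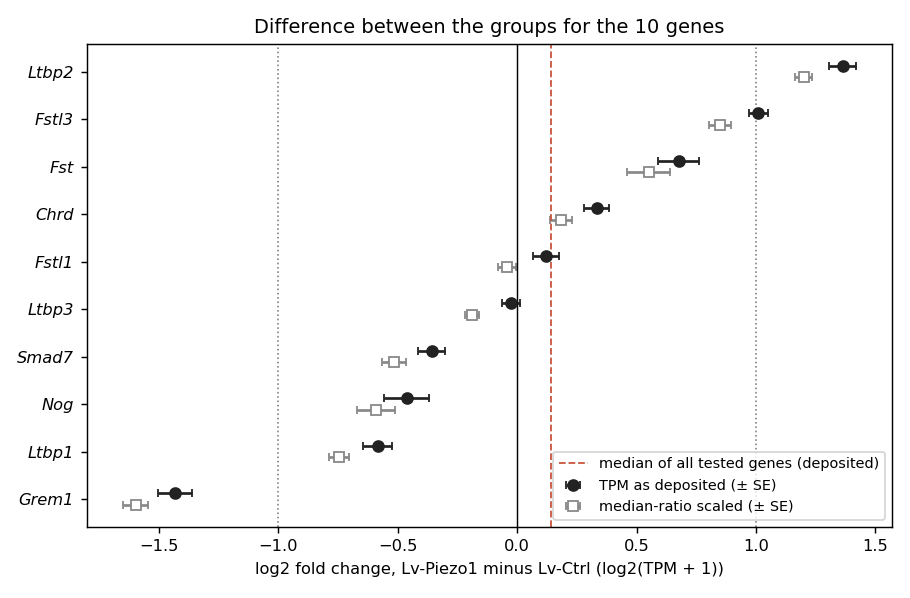
Log2 fold changes with standard errors of the 10 genes on the TPM as deposited (filled circles) and after median-ratio scaling (open squares), with the limit of 1 as dotted lines and the median of all tested genes as a dashed line. Scaling moves all 10 genes to the left by a similar amount, which takes Fstl3 from 1.01 to 0.85 and Fstl1 from 0.12 to -0.043 and leaves the order of the genes as it was.

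The start regions of Grem1 and Ltbp2 are shown because these genes made the largest fall and the largest rise. RefSeq promoter windows of assembly GRCr8, from 250 bases before to 50 bases after the start site, matched 9 of the 10 genes by symbol. The windows lie at chr3:120978270-120978569 for Grem1 and chr6:110257249-110257548 for Ltbp2, both on the minus strand, and are printed 5′ to 3′ with any match to a searched motif in capitals.
Grem1: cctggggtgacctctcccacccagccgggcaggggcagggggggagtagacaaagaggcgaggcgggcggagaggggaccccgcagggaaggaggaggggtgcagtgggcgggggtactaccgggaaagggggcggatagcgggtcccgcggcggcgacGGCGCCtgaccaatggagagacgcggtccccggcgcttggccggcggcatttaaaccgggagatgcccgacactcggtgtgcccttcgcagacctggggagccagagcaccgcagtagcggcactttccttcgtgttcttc
Ltbp2: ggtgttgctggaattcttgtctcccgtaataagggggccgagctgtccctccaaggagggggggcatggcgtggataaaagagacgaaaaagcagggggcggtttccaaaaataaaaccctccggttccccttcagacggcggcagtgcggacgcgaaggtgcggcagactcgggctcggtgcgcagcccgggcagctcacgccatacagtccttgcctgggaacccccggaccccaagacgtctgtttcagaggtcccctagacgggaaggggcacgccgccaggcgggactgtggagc
The capitals in the Grem1 window mark GGCGCC, a GC-rich element that SMAD proteins of the BMP branch are known to bind. It began 91 bases before the start site and reads the same on both strands. The Ltbp2 window held no match. On both strands, the search also covered the SMAD palindrome GTCTAGAC, the TEAD element CATTCC, the AP-1 element TGACTCA, the TATA box TATAAA and the CArG box, and TATAAA can lie inside a CArG box while the others do not contain each other. GGCGCC was found in the windows of 6 of the 9 genes (Grem1, Nog, Chrd, Fstl1, Ltbp1 and Smad7). It occurred in 11% of all 33469 windows and in 31.2% of the 8777 windows with at least 60% G and C, the least that any of the 9 genes had. The median content of G and C was 70% for the 9 genes and 51.7% for all windows. Of all windows, 25.5% had more than 60% G and C and 7.89% had more than 70%. Most of the windows behind the 31.2% were therefore poorer in G and C than the median of the 9 genes. The share of GGCGCC among windows matched to the 9 genes, and any tie of it to direction, was not tested. GTCTAGAC occurred in 0.197% of all windows, CATTCC in 14.2%, TGACTCA in 4.63%, TATAAA in 14.2% and the CArG box in 1.64%. In the windows with at least 60% G and C these shares were 0.0911%, 8.81%, 2.35%, 2.96% and 1.01%, in the same order. Among the 9 genes, only Fstl3 held one of these, TATAAA. The 6 genes with GGCGCC were the 4 that fell, Chrd, which rose, and Fstl1, which did not pass the test, and the windows of Fstl3, Ltbp2 and Ltbp3 did not hold it.

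Grem1 (ENSRNOG00000026053), which encodes the DAN-family BMP antagonist gremlin 1, was by far the most abundant BMP antagonist of the 3. It measured 1830.12, 1845, 1514 and 1780.25 TPM in Lv-Ctrl-labelled replicates 1 to 4, and 622, 601, 648 and 704 TPM in Lv-Piezo1-labelled replicates 1 to 4. The lowest Lv-Ctrl-labelled library, replicate 3, still lay above the highest sample of the other group. The mean fell from 1742 ± 155 to 644 ± 44.3 TPM (SD, n = 4 each), which is 36.9% of the Lv-Ctrl mean. The log2 fold change was -1.43 (standard error 0.07, limma adjusted p = 3.7e-07, lower in 4 of 4 samples). An exact two-sided permutation test gave p = 0.029, the smallest that 4 samples against 4 allow, and it gave the same p for each of the 9 genes whose groups did not overlap. Among all rows of the table, Grem1 ranked 73 by its mean TPM in the Lv-Ctrl-labelled libraries and 243 in the Lv-Piezo1-labelled libraries.

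Noggin and chordin, which bind BMPs in the extracellular space as gremlin does, were present at much lower levels and moved in opposite directions. Nog (ENSRNOG00000023683) measured 4.70, 4.95, 4.14 and 4.22 TPM in the Lv-Ctrl-labelled libraries and 3.24, 2.54, 2.82 and 3.40 TPM in the Lv-Piezo1-labelled libraries. Its log2 fold change was -0.46 (standard error 0.09, limma adjusted p = 0.0025), with no overlap between the groups. Chrd (ENSRNOG00000001750) measured 9.12, 9.01, 8.46 and 9.40 TPM against 11.6, 11.5, 12.2 and 11.1 TPM. It rose by 0.33 in log2 units (standard error 0.05, limma adjusted p = 4.9e-04), and after median-ratio scaling by 0.18 (standard error 0.05, limma adjusted p = 0.0087). Grem1 made up 99.2% ± 0.0362 of the summed TPM of Grem1, Nog and Chrd in the Lv-Ctrl-labelled libraries and 97.8% ± 0.136 in the Lv-Piezo1-labelled libraries (SD, n = 4 each). The sum of the 3 genes therefore followed Grem1, with 1756 ± 155 TPM against 658 ± 44.5 TPM (SD, n = 4 each).

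The BMP ligand genes did not move as a block. Bmp4 rose from 125 ± 6.04 to 290.3 ± 2.92 TPM (SD, n = 4 each), with a log2 fold change of 1.21 (standard error 0.04, limma adjusted p = 1.8e-08). Bmp6, chosen after its values were seen, had 157, 153, 141 and 149 TPM in the Lv-Ctrl-labelled libraries. It had 65.3, 61.1, 65.4 and 69.0 TPM in the Lv-Piezo1-labelled libraries, a log2 fold change of -1.19 (limma adjusted p = 7.8e-08). Bmp2 and Bmp7, chosen in the same way, passed as lower, at -0.996 and -0.34 (limma adjusted p = 2.7e-05 and 0.013). Bmp5, Gdf5 and Gdf6 did not pass, and Bmp3 and Gdf7 were not tested. The summed TPM of the 9 BMP and growth differentiation factor genes Bmp2 to Bmp7 and Gdf5 to Gdf7 was 297 ± 15.2 in the Lv-Ctrl-labelled libraries and 372 ± 5.58 in the Lv-Piezo1-labelled libraries (SD, n = 4 each). Set against this sum, Grem1 had a TPM ratio of 5.94, 5.98, 5.48 and 6.01 in Lv-Ctrl-labelled replicates 1 to 4. In Lv-Piezo1-labelled replicates 1 to 4 the ratio was 1.66, 1.64, 1.76 and 1.86. The Grem1 transcript thus outnumbered the summed ligand transcripts in all 8 samples, by a mean of 5.85 ± 0.25 and 1.73 ± 0.0991 (SD, n = 4 each). This ratio is a description without a test, because the genes were chosen with results of these data known.

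**Figure D2:**
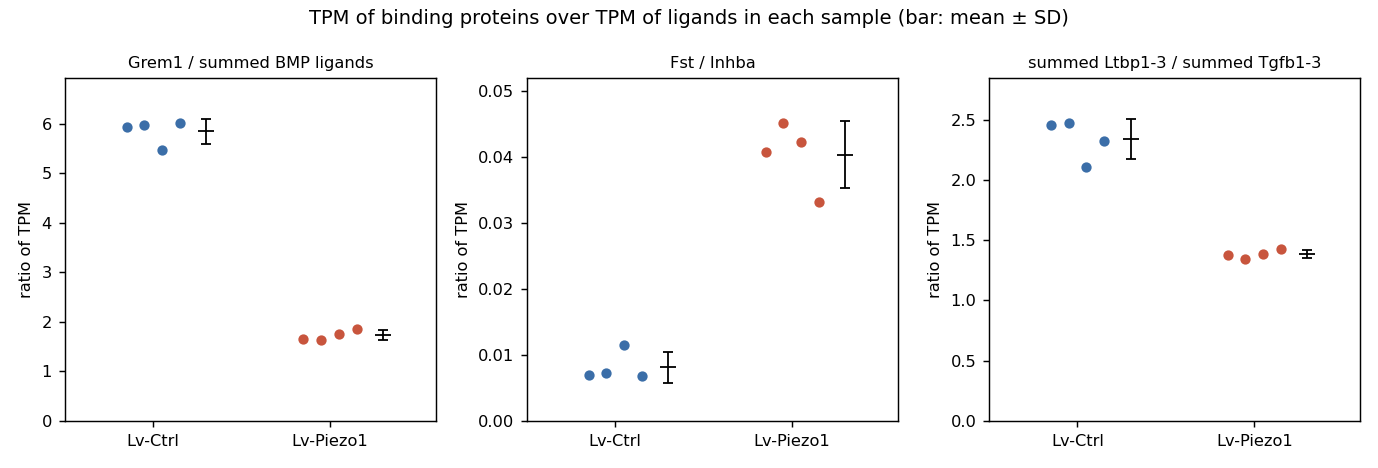
TPM ratios of antagonist or LTBP transcripts to ligand transcripts, on a linear axis from 0. Each of the 4 Lv-Ctrl-labelled (blue) and 4 Lv-Piezo1-labelled (red) libraries is 1 point, with the mean ± SD beside them. The LTBP sum includes Ltbp2, whose product is known to lack the bond to latent TGF-beta. The ratio of Grem1 to summed BMP ligands and that of summed Ltbp1 to Ltbp3 to summed Tgfb1 to Tgfb3 are lower in all 4 Lv-Piezo1-labelled libraries, and the ratio of Fst to Inhba is higher in all 4.

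The follistatins Fst and Fstl3 rose, while Fstl1 did not pass the test. Fstl3 (ENSRNOG00000009311), an activin- and myostatin-binding glycoprotein gene, measured 48.5, 48.9, 49.2 and 44.4 TPM in the Lv-Ctrl-labelled libraries and 97.6, 95.7, 97.7 and 97.2 TPM in the Lv-Piezo1-labelled libraries. The Lv-Piezo1-labelled libraries spread by less than 1% of their mean, the tightest group of any of the 10 genes. The mean went from 47.7 ± 2.26 to 97.0 ± 0.93 TPM (SD, n = 4 each), a 2.03-fold rise. Its log2 fold change of 1.01 (standard error 0.04, limma adjusted p = 7.0e-08) lay on the limit of 1, and it was 0.98 without Lv-Ctrl replicate 4 and 0.85 after median-ratio scaling. Fst (ENSRNOG00000011631), the gene of follistatin itself, was the least abundant member in the Lv-Ctrl-labelled libraries, with 2.29, 2.43, 2.75 and 2.13 TPM. In the Lv-Piezo1-labelled libraries it measured 4.26, 4.46, 4.83 and 4.15 TPM, all above the other group. Fst rose by 0.68 in log2 units (standard error 0.09, limma adjusted p = 1.3e-04), and since the added 1 TPM damps the change of so low a gene, the log2 fold change was 0.86 with a pseudocount of 0.1.

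Fstl1 (ENSRNOG00000002746), a secreted follistatin-like glycoprotein gene, measured 749, 749, 628 and 702 TPM in the Lv-Ctrl-labelled libraries and 751, 755, 779.63 and 781 TPM in the Lv-Piezo1-labelled libraries. The groups did not overlap, but the gap between the highest Lv-Ctrl and the lowest Lv-Piezo1 value was small beside the spread of the Lv-Ctrl-labelled libraries. Its log2 fold change was 0.12 (standard error 0.05, limma adjusted p = 0.091), next to the median of all tested genes, and turned to -0.043 after median-ratio scaling (limma adjusted p = 0.36). Fstl1 held 93.3% ± 0.659 of the summed follistatin TPM in the Lv-Ctrl-labelled libraries and 88.3% ± 0.188 in the Lv-Piezo1-labelled libraries, and Fstl3 held 6.33% ± 0.602 and 11.2% ± 0.186 (SD, n = 4 each).

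Inhba, Inhbb and Mstn, 3 ligand genes whose products follistatin and follistatin-like 3 bind, fell in the same samples. They were named for their falls. Of 16 tested ligand genes, 8 passed as lower and 3, among them Bmp4, as higher, against 16.3% and 41.9% of all tested genes. Inhba, which encodes the activin A subunit, had 331, 337, 239 and 315 TPM in the Lv-Ctrl-labelled libraries and 105, 98.8, 114 and 125 TPM in the Lv-Piezo1-labelled libraries, a log2 fold change of -1.45 (standard error 0.12, limma adjusted p = 6.9e-06). Inhbb, the activin B subunit gene, fell from 15.04 ± 0.746 to 1.13 ± 0.197 TPM (n = 4 each, SD), a log2 fold change of -2.92 (limma adjusted p = 9.9e-09). Mstn, the myostatin gene, fell by 2.57 on the log2 scale (limma adjusted p = 9.7e-08). The TPM ratio of Fst to Inhba was 0.00692, 0.00720, 0.0115 and 0.00676 in Lv-Ctrl-labelled replicates 1 to 4. It was 0.0407, 0.0451, 0.0423 and 0.0332 in Lv-Piezo1-labelled replicates 1 to 4, so that the 2 groups did not overlap and Inhba remained the more abundant transcript in all 8 samples. The mean ratio in the Lv-Piezo1-labelled libraries was 4.98 times that of the other group, and 5.79 times without Lv-Ctrl replicate 3. This ratio leaves out the more abundant Fstl3, although follistatin-like 3 binds activins as well. Fstl3 averaged 47.7 TPM beside 305 for Inhba in the Lv-Ctrl-labelled libraries. In the Lv-Piezo1-labelled libraries it averaged 97.0 TPM beside 111 for Inhba.

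The 3 latent TGF-beta binding proteins each behaved differently. Ltbp2 (ENSRNOG00000012094), an elastic microfibril-associated protein gene, measured 241, 251, 209.59 and 232 TPM in the Lv-Ctrl-labelled libraries and 592, 576, 600.04 and 633 TPM in the Lv-Piezo1-labelled libraries. Every Lv-Piezo1-labelled library had more than the highest sample of the other group, and the mean rose 2.57-fold, from 233 ± 17.6 to 600.27 ± 24.1 TPM (SD, n = 4 each). The log2 fold change was 1.36 (standard error 0.06, limma adjusted p = 1.0e-07). Ltbp1 (ENSRNOG00000033090), which tethers latent TGF-beta to fibronectin and fibrillin fibers, measured 203, 206, 173 and 193 TPM against 128, 119.89, 130.37 and 137 TPM. It fell by 0.58 on the log2 scale (standard error 0.06, limma adjusted p = 4.2e-05), to 66.5% of its Lv-Ctrl mean, without overlap. Ltbp3 (ENSRNOG00000020813), the other binder of latent TGF-beta here, measured 145, 150.46, 136 and 138 TPM against 139, 136, 139.79 and 145 TPM. These ranges overlapped and the log2 fold change was -0.026 (standard error 0.039, limma adjusted p = 0.60, exact two-sided permutation test p = 0.60). After median-ratio scaling its log2 fold change was -0.19 (standard error 0.03, limma adjusted p = 5.3e-04), so that it passed the test as lower there while staying far from the limit of 1, and after quantile normalization it was -0.071 and did not pass (limma adjusted p = 0.12).

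The makeup of the LTBP transcripts changed with these differences. Ltbp2 supplied 41.0%, 41.3%, 40.4% and 41.1% of the summed TPM of Ltbp1, Ltbp2 and Ltbp3 in Lv-Ctrl-labelled replicates 1 to 4. In Lv-Piezo1-labelled replicates 1 to 4 it supplied 69.0%, 69.2%, 69.0% and 69.2%. The share of Ltbp1 went from 34.0% ± 0.466 to 14.8% ± 0.277 and that of Ltbp3 from 25.0% ± 0.785 to 16.1% ± 0.222 (SD, n = 4 each). A share within a sample is unchanged when all its values are multiplied by one factor, as in median-ratio scaling. The sum of the 3 genes was 569 ± 38.3 TPM in the Lv-Ctrl-labelled libraries and 869 ± 34.7 TPM in the Lv-Piezo1-labelled libraries (SD, n = 4 each).

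**Figure D3:**
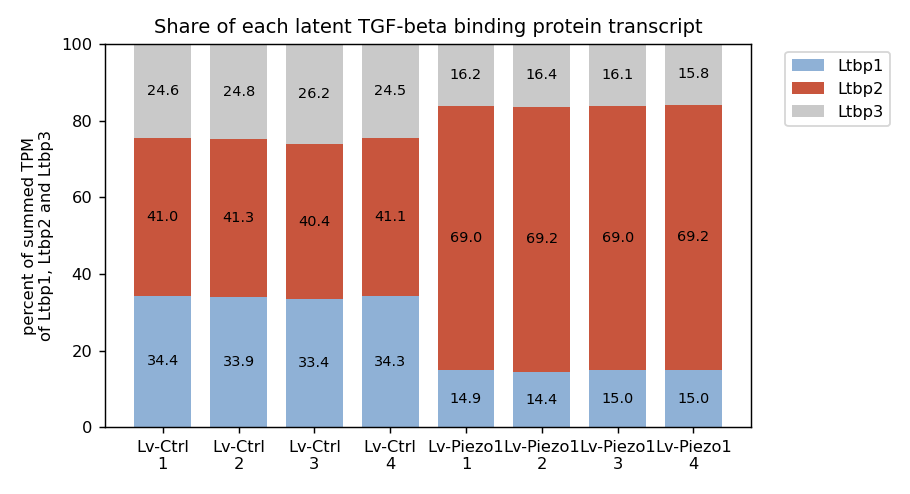
Stacked bars give the percent of the summed TPM of Ltbp1, Ltbp2 and Ltbp3 that each gene supplied in each of the 8 samples. Ltbp2 stands at 40.4% to 41.3% in the Lv-Ctrl-labelled libraries and at 69.0% to 69.2% in the Lv-Piezo1-labelled libraries, and Ltbp1 and Ltbp3 take smaller shares there.

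Of the TGF-beta ligand genes, Tgfb2 and Tgfb3 rose. Tgfb3 measured 61.5, 61.1, 58.1 and 62.2 TPM in the Lv-Ctrl-labelled libraries and 420.33, 415, 430.7 and 438 TPM in the Lv-Piezo1-labelled libraries, a log2 fold change of 2.79 (standard error 0.03, limma adjusted p = 6.6e-11). Tgfb2 rose by 1.05 on the log2 scale (limma adjusted p = 1.9e-06). Tgfb1, chosen after its values were seen, had a log2 fold change of 0.024 (limma adjusted p = 0.53). The summed TPM of the 3 ligands was 244 ± 2.90 in the Lv-Ctrl-labelled libraries and 628 ± 9.59 in the Lv-Piezo1-labelled libraries (SD, n = 4 each). The ratio of summed LTBP to summed TGF-beta transcripts was 2.45, 2.47, 2.11 and 2.32 in Lv-Ctrl-labelled replicates 1 to 4 and 1.38, 1.35, 1.38 and 1.43 in Lv-Piezo1-labelled replicates 1 to 4. It was lower in all 4 Lv-Piezo1-labelled libraries although the LTBP sum itself was higher there. Ltbp2, which is not known to carry latent TGF-beta, made up most of that sum there, so the ratio is not one of binders to ligands. Ltbp1 and Ltbp3 averaged 194 and 142 TPM in the Lv-Ctrl-labelled libraries, beside 244 for the summed ligands. In the Lv-Piezo1-labelled libraries they averaged 129 and 140 TPM, beside 628.

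Other genes of TGF-beta storage and release were read from a list of 23 genes, of which 18 were tested. Of these, 8 passed the test as higher and 4 as lower, against 41.9% and 16.3% of all tested genes, and 6 did not pass. The median log2 fold change was 0.139, beside 0.142 for all tested genes. Lrrc32, which encodes the membrane anchor GARP for latent TGF-beta, rose from 3.41 ± 0.656 to 15.5 ± 0.498 TPM (SD, n = 4 each), with a log2 fold change of 1.91 (limma adjusted p = 5.5e-07). Adamts10, a microfibril-associated metalloprotease gene, rose by 1.07 (limma adjusted p = 1.0e-06). Dcn, whose product decorin is a small proteoglycan that binds TGF-beta, fell from 1456 ± 69.3 to 519 ± 14.9 TPM (n = 4 each, SD), a log2 fold change of -1.49 (limma adjusted p = 7.9e-09). Tll1, a protease gene of the tolloid family that is known to cleave chordin, fell by 1.16 on the log2 scale (limma adjusted p = 9.6e-06). Thbs1, an activator of latent TGF-beta and the most abundant gene of the list, had 4279 ± 692 TPM against 3729 ± 334 TPM (SD, n = 4 each) and did not pass the test (limma adjusted p = 0.21).

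Smad7 (ENSRNOG00000018359), the only intracellular inhibitor among the 10 genes and itself a known target of TGF-beta signaling, was lower in the Lv-Piezo1-labelled libraries. It measured 35.7, 40.5, 35.3 and 38.1 TPM in the Lv-Ctrl-labelled libraries and 28.2, 27.3, 30.9 and 29.5 TPM in the Lv-Piezo1-labelled libraries. The groups did not overlap. The log2 fold change was -0.36 (standard error 0.06, limma adjusted p = 5.5e-04), and -0.51 after median-ratio scaling (standard error 0.05). Smad6, the other inhibitory SMAD gene, chosen after its values were seen, also fell, with 17.7, 17.0, 17.3 and 17.7 TPM against 12.7, 12.97, 12.5 and 12.4 TPM and a log2 fold change of -0.43 (limma adjusted p = 1.8e-05).

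Among the 17 tested SMADs and intracellular regulators, 8 passed the test as higher and Smad6 was the 1 that passed as lower, against 41.9% and 16.3% of all tested genes. None of the 17 was called, against 4.91% of all tested genes called higher and 2.76% called lower. Their median log2 fold change was 0.25. Pmepa1, a TGF-beta-induced gene whose product restrains SMAD signaling and the most abundant of the list, rose from 124 ± 11.04 to 238 ± 11.97 TPM (n = 4 each, SD), a log2 fold change of 0.93 (limma adjusted p = 3.0e-06). Smad7 and Pmepa1, both known as feedback inhibitors, therefore went opposite ways in the same samples.

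In the list of TGF-beta targets, 13 of 19 tested genes passed as higher and 3 as lower, against 41.9% and 16.3% of all tested genes, with a median log2 fold change of 0.83. This list includes Ltbp2 and Smad7, and 2 of its genes, Acta2 and Tagln, are smooth muscle markers as well. Without those 4 genes, 10 of 15 passed as higher and 2 as lower, with a median of 0.71. Ccn2, the gene of a matricellular growth factor-binding protein, averaged 1444 ± 87.2 and 4611 ± 95.2 TPM (SD, n = 4 each) and rose by 1.68 on the log2 scale (limma adjusted p = 7.3e-09). Acta2, the smooth muscle actin gene, averaged 51.2 ± 2.27 and 1344 ± 40.5 TPM (limma adjusted p = 5.7e-12). Tagln, which encodes an actin-binding protein, rose by 3.63 on the log2 scale (limma adjusted p = 5.7e-12). Col1a1, the most abundant of the list, rose by 0.83 (limma adjusted p = 1.3e-07). Tgfbi, a matrix protein gene named for its induction by TGF-beta, fell from 809 ± 21.1 to 297 ± 8.5 TPM (n = 4 each, SD), a log2 fold change of -1.45 (limma adjusted p = 2.3e-09).

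In the list of BMP targets, 8 of 14 tested genes passed as higher and 5 as lower, against 41.9% and 16.3% of all tested genes, 3 of the lower ones being Grem1, Nog and Smad7. Without these 3 genes, 8 of 11 passed as higher and 2 as lower, with a median log2 fold change of 0.61. Id1 measured 25.4, 21.8, 19.5 and 22.4 TPM in the Lv-Ctrl-labelled libraries and 72.6, 69.4, 70 and 62.6 TPM in the Lv-Piezo1-labelled libraries. Id3 rose from 219.5 ± 13.1 to 514 ± 5.01 TPM (SD, n = 4 each), and the log2 fold changes of Id1 and Id3 were 1.58 and 1.23 (limma adjusted p = 3.4e-07 and 2.9e-08). Id1 and Id3 encode inhibitors of basic helix-loop-helix factors and are classical BMP-induced genes. The 2 of the 11 that passed as lower, named after their values were seen, were Smad6 and Hes1. Their log2 fold changes were -0.43 and -0.30 (limma adjusted p = 1.8e-05 and 0.017).

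**Figure D4:**
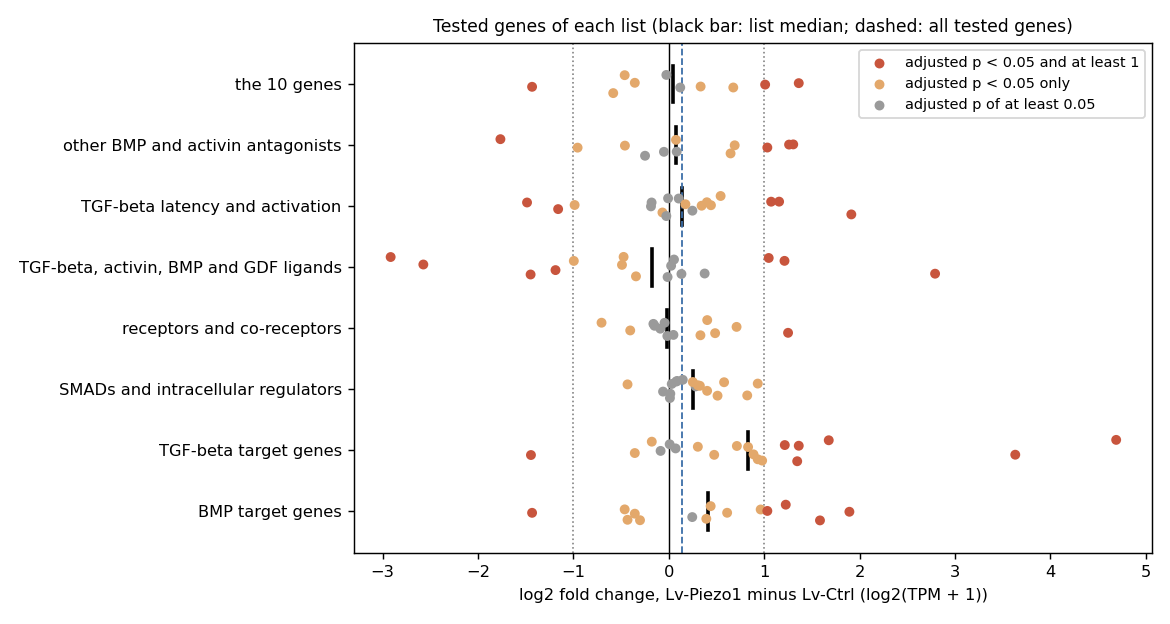
Log2 fold changes on the log2(TPM + 1) scale of the tested genes in each list, colored by whether they passed the test and the limit of 1 (dotted lines), with list medians as black bars and the median of all tested genes, 0.14, as a dashed line. The 10 genes spread to both sides with a median of 0.05, while the medians of the TGF-beta and BMP target lists, which share some of the 10 genes, are 0.83 and 0.42.

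Grem1 was not the only BMP antagonist at a high level. In a list of 22 other BMP and activin antagonists, 12 genes were tested, 6 passed as higher and 3 as lower, against 41.9% and 16.3% of all tested genes, and the median log2 fold change was 0.08. Nbl1, a DAN-family antagonist gene like Grem1, measured 4482, 4424, 4567 and 4299.98 TPM in the Lv-Ctrl-labelled libraries and 1315, 1325, 1299 and 1286 TPM in the Lv-Piezo1-labelled libraries. It fell by 1.77 on the log2 scale (standard error 0.03, limma adjusted p = 2.7e-10). Bmper, whose product binds BMPs through chordin-like repeats, rose from 3.92 ± 0.658 to 11.1 ± 0.378 TPM, and Bambi, a decoy receptor gene, from 14.7 ± 0.882 to 31.1 ± 1.37 TPM (SD, n = 4 each). Their log2 fold changes were 1.30 and 1.03 (limma adjusted p = 4.7e-06 and 4.8e-07). Sost, Cer1 and Vwc2, named after their values were seen, were listed at 0 in all 8 samples. Of 16 tested ligand genes, 3 passed as higher and 8 as lower, beside the same shares of all tested genes, with a median log2 fold change of -0.18, and Gdf15, the most abundant, fell by 0.47 (limma adjusted p = 5.4e-06).

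Of 13 tested receptors and co-receptors, 5 passed as higher and 2 as lower, against 41.9% and 16.3% of all tested genes, and their median log2 fold change was -0.015. Eng, which encodes the TGF-beta co-receptor endoglin, was the 1 of the 13 called, against 4.91% of all tested genes called higher, with a rise from 19.7 ± 2.11 to 48.1 ± 1.21 TPM (SD, n = 4 each) and a log2 fold change of 1.25 (limma adjusted p = 6.9e-07). Tgfbr2, the type II TGF-beta receptor gene and the most abundant of the list, had 59.3 ± 5.16 TPM against 58.5 ± 2.43 TPM (SD, n = 4 each) and did not pass the test (limma adjusted p = 0.86). Over the 7 lists with the 10 genes left out, 47 of 100 tested genes passed as higher and 21 as lower, against the 41.9% and 16.3% of all tested genes.

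The order of the 10 genes by TPM differed between the groups. In the Lv-Ctrl-labelled libraries it ran from Grem1 over Fstl1, Ltbp2, Ltbp1, Ltbp3, Fstl3, Smad7, Chrd and Nog to Fst, and no pair of neighbors overlapped. In the Lv-Piezo1-labelled libraries Fstl1 came first, Grem1 (601 to 704 TPM) and Ltbp2 (576 to 633 TPM) overlapped behind it, and so did Ltbp3 (136 to 145 TPM) and Ltbp1 (119.89 to 137 TPM). Fst lay above Nog there and below it in the Lv-Ctrl-labelled libraries, without overlap in either group. The summed TPM of all 10 genes was 3120 ± 249 in the Lv-Ctrl-labelled libraries and 2424 ± 93.8 in the Lv-Piezo1-labelled libraries (SD, n = 4 each), and the share of Grem1 in it went from 55.8% ± 0.744 to 26.5% ± 0.796 while that of Ltbp2 went from 7.48% ± 0.12 to 24.8% ± 0.171.

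Replicates of a group differed little, with a standard deviation of 0.959% (Fstl3) to 13.1% (Nog) of the mean. Lv-Ctrl replicate 3 was the lowest sample of its group for 8 of the 10 genes, Fst and Fstl3 being the exceptions, and Lv-Piezo1 replicate 2 was the lowest of its group for 7. The median-ratio factor of Lv-Ctrl replicate 3 was 0.899, the smallest of the 8 samples, and after scaling it was the lowest for 4 of the 10 genes. Without this replicate the log2 fold changes were -1.50 for Grem1 and 1.31 for Ltbp2, and the same 3 genes were called.

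The cell type named by the labels was checked against markers, whose counts stand against 41.9% of all tested genes passing as higher and 16.3% as lower. Col1a1, Scx and Mkx, markers of annulus and tendon-like fibroblasts, were present, with Scx at 30.1 ± 5.05 and 56.8 ± 10.5 TPM and Mkx at 25.4 ± 2.89 and 14.6 ± 1.41 TPM in the Lv-Ctrl- and Lv-Piezo1-labelled libraries (SD, n = 4 each). Some other genes of the same list were low, and were named after their values were seen. The tendon marker Tnmd was listed at 0 in 7 of 8 samples, the cartilage collagen gene Col2a1 was at 0.47 and 0.427 TPM and was not tested, and the matrix protein gene Comp was at 0.738 and 2.86 TPM. Of the 13 tested markers of this kind, 7 passed as higher and 4 as lower, with a summed level of 7827 ± 387 and 11319 ± 302 TPM, and Thbs4 and Cilp had the largest changes of this list, 3.21 and -1.64 on the log2 scale. The 8 endothelial markers found in the table summed to 0.55 and 0.53 TPM and none was tested, with Vwf as the most abundant, Pecam1 at 0.0975 and 0.15 TPM and Cdh5 at 0 and 0.015 TPM, and the notochord marker Tbxt was listed at 0 in all 8 samples. The 9 macrophage and leukocyte markers summed to 22.2 ± 0.634 and 38.5 ± 2.48 TPM (SD, n = 4 each), and both of the 2 tested passed as higher, which is too few to read against the share of all genes. Their defining gene Ptprc was at 0 and 0.0025 TPM and Csf1r at 0.0875 and 0.095 TPM, while Cd14, the most abundant, was at 20.9 and 25.8 TPM and Cd68 at 0.955 and 12.3 TPM. In the nucleus pulposus list, which summed to 194 ± 7.61 and 208 ± 8.14 TPM (SD, n = 4 each), 3 of 5 tested genes passed as higher and 1 as lower, too few to set apart from those shares. Pax1 was the most abundant, at 101 and 116 TPM, and Cd24 and Ncam1 rose by 2.25 and 0.93 on the log2 scale.

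Smooth muscle and pericyte markers moved with the groups. Of 11 tested markers, 9 passed as higher and 2, Kcnj8 and Abcc9, as lower, against 41.9% and 16.3% of all tested genes, and the sum of the 13 listed went from 971 ± 21.7 to 4919 ± 74.9 TPM (SD, n = 4 each), with Tagln as the most abundant. Myh11, the defining smooth muscle myosin gene, measured 1.84, 2.08, 1.72 and 1.56 TPM in the Lv-Ctrl-labelled libraries and 48.0, 46.1, 49.2 and 48.4 TPM in the Lv-Piezo1-labelled libraries. The part of these markers, of Cd68 and of Cd24 in the differences of the 10 genes was not tested.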

How the data were processed

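RNA-seq was compared between Lv-Ctrl-labelled (n = 4) and Lv-Piezo1-labelled (n = 4) libraries. The authors cleaned the reads of adapters and poor bases, aligned them to a rat reference (HISAT2), built transcripts (StringTie) and deposited TPM to 2 decimals. Their methods name FPKM and do not say how TPM was made. The submitters' processing notes name the mouse build mm10, while 30560 of the 31699 rows carry rat Ensembl identifiers, and the rat build is not given in the sources used here. TPM keeps no depth, so the depth of a sample is unknown and precision rests on the 4 replicates of a group. The deposited mean columns were not used. The labels do not tie a replicate number to an isolation of cells, so p-values measure the spread between these samples.

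Genes with a mean of at least 1 TPM were tested as log2(TPM + 1) with limma 3.58.1 in R 4.3.3 (trend, Benjamini-Hochberg adjustment), and single genes also by exact two-sided permutation of the labels (70 relabelings). Called genes had an adjusted p below 0.05 and a log2 fold change of at least 1. The fit was tested on simulated data. The 10 genes and the lists were chosen with earlier results of these data known, and the lists were written from general knowledge. Named were the 10 genes, Piezo1, in each of the 7 pathway lists up to 3 called rises and 3 called falls with a mean of at least 5 TPM and the most abundant gene, and in each of 5 cell type lists the most abundant gene and the 2 largest changes. Genes outside this rule are said to be so, or are defining markers of a cell type. The alternatives are given in the closing section. Promoter windows came from RefSeq (GRCr8), and no coordinates of the deposited table were used.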

Additional observations from a re-analysis of the deposited data

Results flagged for a closer look

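Among the Lv-Ctrl-labelled libraries, replicate 4 of Fstl3 (44.4 TPM) lay apart from the other replicates (48.5 to 49.2 TPM), with a gap of 0.857 of the range of the group, past the 95% critical value of Dixon's test for 4 samples. It was 1 of 20 sets of replicates examined, and chance gives about 1 in 20. Without this sample the log2 fold change of Fstl3 was 0.98 (limma adjusted p = 2.2e-07).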

How the results depend on the processing

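Alternatives tried were 0.1 as the pseudocount, no filter, a mean of at least 5 TPM, scaling by median ratios or quantiles, omission of mitochondrially encoded genes, untrended moderation, the replicate block, leaving out each sample, and, chosen after seeing the data, fold changes against the median of all tested genes. Grem1 (-1.61 to -1.37), Ltbp2 (1.18 to 1.40), Ltbp1 (-0.76 to -0.55), Chrd (0.15 to 0.36), Smad7 (-0.53 to -0.32) and Fstl3 (0.83 to 1.02) kept their direction and an adjusted p below 0.05 in all 17 alternatives, and Nog (-0.66 to -0.41) and Fst (0.46 to 0.86) in the 16 that tested them, a mean of at least 5 TPM leaving both out. Fstl3 fell below the limit of 1 after either scaling, without mitochondrially encoded genes, against the median of all genes and without Lv-Ctrl replicate 4, so that 2 to 3 genes were called. Piezo1 (0.20 to 0.43) also stayed higher with a limma adjusted p below 0.05 in all 17 alternatives. Its log2 fold change was 0.22 after median-ratio scaling and 0.20 against the median of all genes. Fstl1 turned to -0.043 after median-ratio scaling and to -0.058 against the median of all genes. Ltbp3 passed the test as lower in these fits, at -0.19 and -0.20, but did not after quantile normalization (-0.071), and it lay between -0.047 and 9.97e-04 when 1 sample was left out, the highest coming without Lv-Ctrl replicate 2. The Grem1 ratio to BMP ligands between the groups was 0.295 and became 0.318 after quantile normalization. With a mean of at least 5 TPM, 628 genes were called in place of 1005, 372 of them higher in place of 644, because fewer genes were tested, and with a pseudocount of 0.1 the number called was 1438, with 952 higher. Of the called genes, 64.1% were higher, against 52.3% after median-ratio scaling, 48.8% after quantile normalization and 47.7% against the median of all genes. With the replicate block 1004 genes and the same number of the 10 genes, 3, were called, and the block changed no call among the 10 genes. The correlations of the deviations of same-numbered samples from the group means lay between -0.0576 and -0.0124 and no sample correlated best with its own number, so they were not paired. By the methods, cells of 1 isolation given the different treatments made 1 repeat. The paper describes its RNA-seq as 4 biological repeats that received the Lv-Ctrl or the Lv-Piezo1 virus under stretch. By that description the groups would share isolations, but the labels do not say that a number marks one. The main fit took the 8 samples as unpaired. The causes of these shifts were not tested, and what depth limits cannot be given for TPM.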
